A study of Homo sapiens with 2 samples.

Results

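The BCL2 family of apoptosis regulators was followed across 2 Affymetrix arrays of MKN28 cells, 1 for cells that the labels give as Sox2 overexpression and 1 for cells given as control. The members were 10 genes of a list with known roles, out of 19775 genes on the array that could be named. They were read by 33 of the 41091 probe sets, groups of short probes that each read 1 stretch of a transcript, that the platform annotation assigns to exactly 1 gene. Of these, 14 read the 3 survival genes BCL2, BCL2L1 and MCL1, and 19 read the 7 death-promoting genes, namely the effectors BAX and BAK1 and the BH3-only genes BID, BAD, BCL2L11, PMAIP1 and BIK. The rule that picks them is a list of gene names and uses no measured value, though the list was drawn up with earlier results of these data known.

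MKN28 is an established gastric adenocarcinoma line that is listed as misidentified, being a derivative of the gastric line MKN74. Per the labels, the Sox2 cells were infected with a lentivirus that carries Sox2 and a puromycin resistance, then selected with puromycin. What the control cells received is not given in the sources used here, nor whether the infected cells were a pool or a clone. SOX2 is an HMG-box transcription factor active in pluripotent cells and in the developing foregut. With 1 array per group there was no replicate error and no test between the conditions, so every difference below is between 2 libraries.

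Proteins of the BCL2 family decide whether the outer membrane of the mitochondrion stays intact. BCL2, BCL-XL (from BCL2L1) and MCL1 hold the effectors BAX and BAK1 in check, while BH3-only proteins bind the survival proteins or the effectors and tip the balance toward pore formation, release of cytochrome c and activation of caspases. In epithelial tumours, including those of the stomach, the survival members are known as a means by which cells resist death signals, and much of the control of the family is exerted on the proteins, which arrays do not measure.

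Intensities of all probe sets ranged from 1 to 19811, with a median of 34.25 over both arrays and a 95th percentile of 159. A probe set or gene was taken as past the filter when its higher value reached that median. Probe sets of SOX2 itself gave 172 in the Sox2 array and 123 in the control array by the brightest, a log2 difference of 0.49, and between -0.46 and 0.31 by the other 3. The labels were therefore not checked by their target gene, and all directions rest on them. Among epithelial markers, 7 of 8 passed the filter and none differed by 2-fold, with summed intensities of 534 in the Sox2 array and 562 in the control array. EPCAM, a defining epithelial surface protein, was read at only 4.96 and 6.32. Of the leukocyte markers with a probe set, 2 of 5 passed, with sums of 222 and 200, and PTPRC, the pan-leukocyte CD45, did not. All 7 endothelial and fibroblast markers passed, with sums of 969 and 958. The part of these levels in the results below was not tested.

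BCL2L1 was the 1 member that differed by at least 2-fold, and it was higher in the array labelled Sox2. The gene encodes BCL-XL, which blocks BAX and BAK1, and by splicing also the shorter BCL-XS, which promotes death. Probe set 212312_at, the brightest, read 117 in the Sox2 array and 45.2 in the control array, a log2 difference of 1.37 or 2.59-fold. Probe set 215037_s_at read 44.1 and 17.7, a log2 difference of 1.32 or 2.49-fold. In contrast, 231228_at read 52.9 and 48.6, a log2 difference of 0.12, and 206665_s_at read 24.2 and 27.4, a log2 difference of -0.18. Thus 2 probe sets moved by nearly the same amount and the other 2 hardly differed. Averaged over its 4 probe sets, BCL2L1 had a log2 difference of 0.66, and no member then reached 2-fold. Scaled on the spike-in RNA added before labelling, BID and BIK reached 2-fold as well, as did 20.7% of genes past the filter. Which transcripts of BCL2L1 each probe set reads was not determined. In bulk RNA a change in the number of cells that express a gene and a change in RNA per cell cannot be told apart.

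Technical spread was taken from the 3471 genes that had exactly 2 probe sets past the filter. The disagreement between these pairs gave a robust SD of 0.27 for a probe set's log2 difference, with no part for cultures or arrays, which were not repeated. Among the 1000 genes nearest to BCL2L1 in level, the robust SD of the differences was 0.23. Of 14253 genes past the filter, 70 had a higher log2 difference than BCL2L1. At least 2-fold higher in the Sox2 array were 292 genes, 2.05% of those past the filter, and at least 2-fold lower were 92, or 0.645%. Against this background, 1 of the 9 members past the filter was higher and 0 were lower, no test being possible. At a threshold of 1.5-fold the members' counts were the same, where 6.46% of genes past the filter were higher and 3.77% lower. Of the 292 genes, 192 had a further probe set past the filter, and in 59 of these (30.7%), BCL2L1 among them, a further probe set was also at least 2-fold higher. The further BCL2L1 probe set, 215037_s_at, was past the filter only by its Sox2 value (44.1, against 17.7 in the control array). Its place among the 59 thus depends on the array where it was high and is no separate support. Probe sets of BCL2L1 also lay far apart: their log2 differences spanned 1.55, and 111 of 1393 genes with 4 probe sets (7.97%) spanned more.

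**Figure D1:**
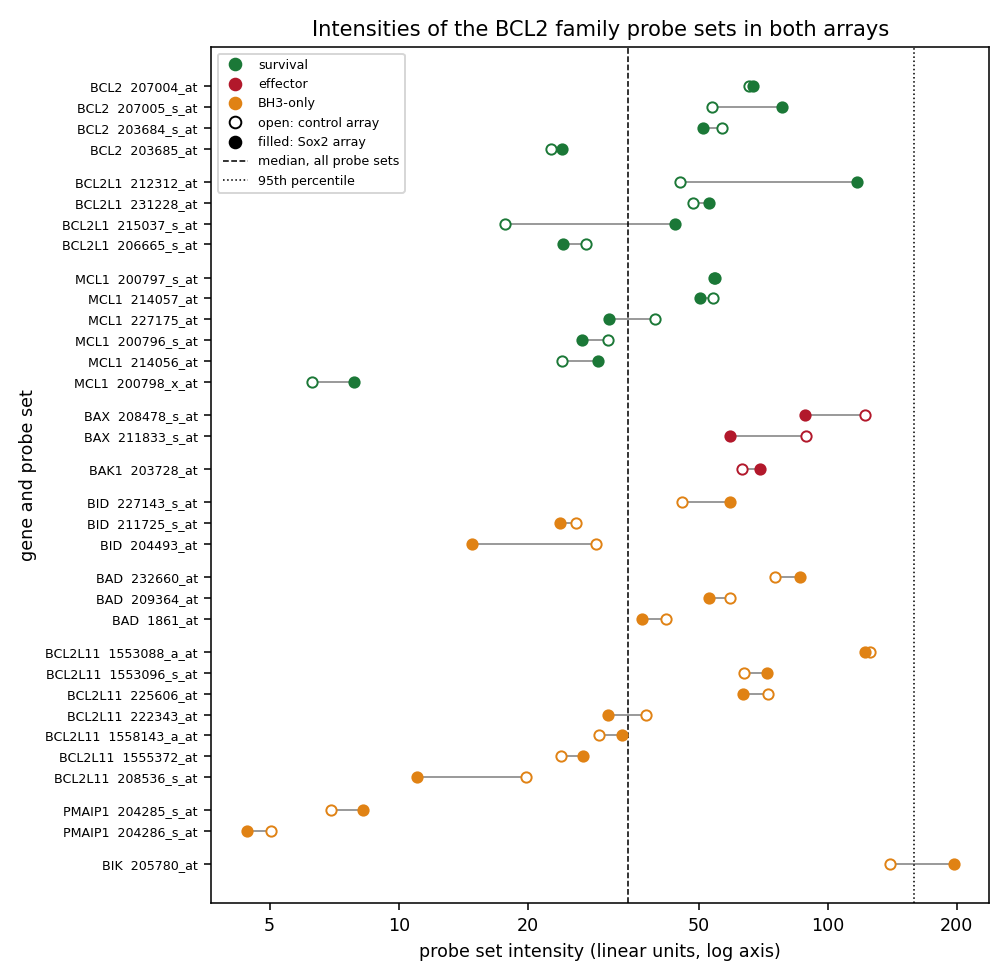
Intensity of each of the 33 BCL2 family probe sets (x axis, linear units on a log scale) in the control array (open) and the Sox2 array (filled), with colours for survival, effector and BH3-only genes and lines at the median (34.25) and 95th percentile (159) of all probe sets. Long bars for BCL2L1 probe sets 212312_at and 215037_s_at stand beside short ones for its other probe sets, and both BAX probe sets are lower in the Sox2 array.

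BCL2, the founding survival gene, was read at 67.1 in the Sox2 array and 65.5 in the control array by its brightest probe set, 207004_at, a log2 difference of 0.035. Probe set 207005_s_at read 78.2 and 53.8, a log2 difference of 0.54. The others read 51.1 and 56.8 (203684_s_at, log2 difference -0.15) and 24.0 and 22.6 (203685_at, 0.088). So 3 of 4 probe sets were higher in the Sox2 array, 2 of them by less than the technical SD.

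MCL1, a survival protein of short half-life that BH3-only proteins such as NOXA displace, had 6 probe sets and no clear direction. Its brightest, 200797_s_at, read 54.3 in the Sox2 array and 54.7 in the control array, a log2 difference of -0.011. The 2 other probe sets past the filter were lower in the Sox2 array, 214057_at at 50.3 and 54.1 and 227175_at at 31.0 and 39.5, with log2 differences of -0.10 and -0.35. Below the filter, 200796_s_at read 26.7 and 30.8 (log2 difference -0.20), 214056_at 29.2 and 24.1 (0.28) and 200798_x_at 7.87 and 6.29 (0.32). The 3 past the filter thus all lay below 0 and the 3 below it were mixed.

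BAX was the member with the lowest log2 difference by its brightest probe set, and both of its probe sets read lower in the Sox2 library. BAX is an effector that oligomerises in the outer mitochondrial membrane. Probe set 208478_s_at read 88.7 in the Sox2 array and 122 in the control array, a log2 difference of -0.46 or 1.38-fold lower. Probe set 211833_s_at read 59.3 and 89.2, a log2 difference of -0.59 or 1.51-fold lower. The direction rests on the scaling between arrays: scaled on the spike-in RNA, the brightest BAX probe set had a log2 difference of 0.29. Neither reached 2-fold, and 964 genes past the filter had a lower log2 difference than BAX. BAX was also the only one of 8 members with several probe sets in which all of them lay on 1 side of 0. Among all genes with 2 probe sets, the same held for 50.8% of 5015.

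BAK1, the other effector, was read by 1 probe set at 69.5 in the Sox2 array and 63.2 in the control array, a log2 difference of 0.14. The effectors therefore differed in direction, BAK1 by less than the technical SD. The log2 difference of BCL2L1 exceeded that of BAX by 1.83, so that the ratio of their intensities by the brightest probe sets was 3.56-fold higher in the Sox2 array. These are the highest and the lowest of the 10 members, so the gap is the widest of any pair by choice. It gives no direction for survival against death-promoting members. With 206665_s_at, the dimmest probe set of BCL2L1, in place of the brightest, the gap was 0.28.

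BCL2L1 and BAX, the members with the highest and the lowest difference, are shown with the 250 bases before a transcription start, since the study's factor, SOX2, binds DNA. Sequences are those of RefSeq for GRCh38.p14, and capitals mark matches to ACAANG, a loose form of the core of SOX sites, searched on both strands (CNTTGT on the other). The BCL2L1 window is the one at chr20:31723964-31724213 (minus strand) and the BAX window is at chr19:48954625-48954874 (plus strand), both 5′ to 3′ along the gene.
BCL2L1: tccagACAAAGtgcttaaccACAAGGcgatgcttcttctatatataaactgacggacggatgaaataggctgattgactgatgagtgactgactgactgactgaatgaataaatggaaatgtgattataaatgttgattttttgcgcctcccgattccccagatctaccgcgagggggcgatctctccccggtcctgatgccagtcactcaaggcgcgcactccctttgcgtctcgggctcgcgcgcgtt
BAX: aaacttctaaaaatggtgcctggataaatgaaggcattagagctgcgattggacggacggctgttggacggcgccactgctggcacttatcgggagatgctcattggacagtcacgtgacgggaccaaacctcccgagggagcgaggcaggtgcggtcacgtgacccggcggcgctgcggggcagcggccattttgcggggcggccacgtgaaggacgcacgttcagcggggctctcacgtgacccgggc
The BCL2L1 window held 2 matches that do not overlap, 239 and 224 bases before the start, and the BAX window held 0. A further BCL2L1 start, at chr20:31722869-31723118 (window, minus strand), had 0 matches. The BCL2L1 window printed is the one that held matches, so the contrast with BAX depends on which start is shown. Over the family, 14 windows of 8 genes were found, and 4 of them, of BCL2L1, BAK1 and BID, held a match, against 30.9% of all 35116 windows. The 2 matching BID windows overlap and hold the same CTTTGT, which lies 117 bases before 1 start and 58 before the other. MCL1 and BIK had no window here. A match is a stretch of letters and was not tested as a binding site.

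Of the BH3-only genes, BIK had the largest log2 difference upward. BIK encodes a membrane protein of the endoplasmic reticulum and mitochondria that binds survival proteins. Its only probe set read 197 in the Sox2 array and 139.6 in the control array, a log2 difference of 0.50 or 1.41-fold, and was the only 1 of the 33 to exceed the 95th percentile of all probe sets. Among the 1000 genes nearest in level the robust SD was 0.34, and 1204 genes past the filter had a higher difference.

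BID links death receptors to the mitochondrion once caspase 8 has cleaved it. Its brightest probe set, 227143_s_at, read 59.3 in the Sox2 array and 45.8 in the control array, a log2 difference of 0.37. Both other probe sets, below the filter, were lower in the Sox2 array: 211725_s_at read 23.8 and 25.9 (log2 difference -0.12) and 204493_at 14.8 and 28.9 (-0.96). The direction of BID thus differed between its probe sets by more than the technical SD.

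BAD, which survival kinases inactivate by phosphorylation, had 3 probe sets past the filter. The brightest, 232660_at, read 86.1 in the Sox2 array and 75.4 in the control array, a log2 difference of 0.19. Lower in the Sox2 array were 209364_at, at 53.0 and 59.3 (log2 difference -0.16), and 1861_at, at 37.0 and 41.9 (-0.18). All 3 differed by less than the technical SD.

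BCL2L11 encodes BIM, which binds all survival members and activates BAX. Of its 7 probe sets, 3 were higher in the Sox2 array and 4 lower. The brightest, 1553088_a_at, read 122 in the Sox2 array and 126 in the control array, a log2 difference of -0.045. Past the filter, 1553096_s_at read 72.2 and 64.0 (log2 difference 0.17), 225606_at 63.6 and 72.4 (-0.19) and 222343_at 30.7 and 37.6 (-0.30). Below it, 1558143_a_at read 33.2 and 29.3 (0.18), 1555372_at 26.8 and 23.9 (0.17) and 208536_s_at 11.0 and 19.8 (-0.84). Only the dimmest of these probe sets departed from 0 by more than 2 technical SDs.

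PMAIP1 encodes NOXA, a p53 target that neutralises MCL1, and it was the 1 member with no probe set past the filter. Its probe sets read 8.24 in the Sox2 array and 6.94 in the control array (204285_s_at, log2 difference 0.25) and 4.42 and 5.04 (204286_s_at, -0.19). With 1 intensity per probe set and array no detection call could be made, so these low values do not show whether the gene was expressed. Being past the filter is not a detection call for the other members either. Of the 5 leukocyte markers with a probe set, 2 were past it as well, CD3E at 82.0 in the Sox2 array and 71.4 in the control array.

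**Figure D2:**
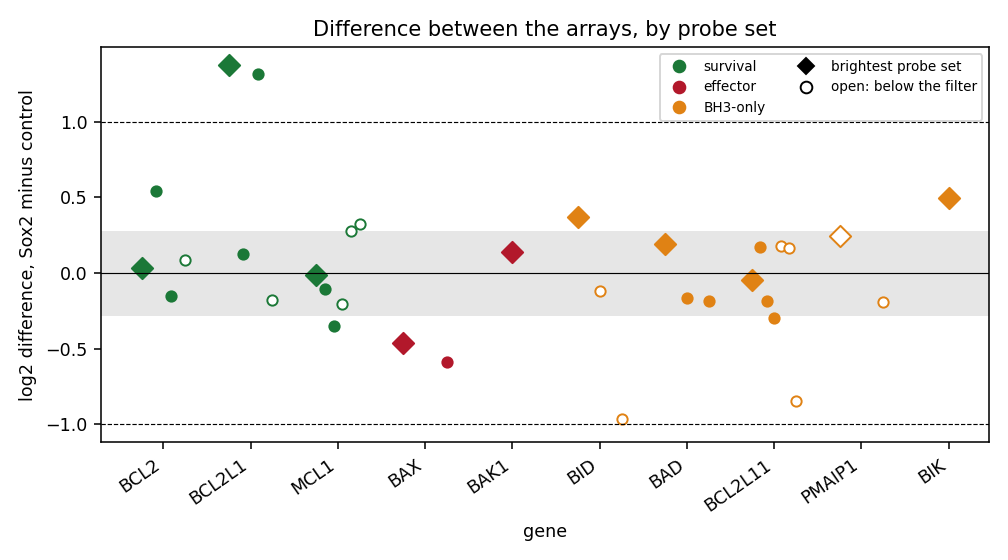
Log2 difference (Sox2 minus control, y axis) of each probe set by gene (x axis); diamonds are the brightest probe set of a gene, open symbols lie below the filter, the grey band is 1 technical SD (0.27) either way and dashed lines mark 2-fold. BCL2L1 alone passes 2-fold, by 2 of its 4 probe sets, and only BAX among the genes with several probe sets has all of them on 1 side of 0.

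Over all 33 probe sets of the family, 16 were higher in the Sox2 array and 17 lower, or 48.5% higher, against 49.9% of all probe sets of 1 gene. The difference was within 1 technical SD for 20 and beyond 2 technical SDs for 5. Those 5 were the 2 of BCL2L1 upward and, downward, 211833_s_at of BAX, 204493_at of BID and 208536_s_at of BCL2L11, the last 2 below the filter. The technical SD was taken only from probe sets past the filter, so it is not the spread of dimmer ones. No share over all probe sets was taken for these distances, so the counts of 20 and 5 cannot be read as many or few. At least 2-fold higher were 2 of 33 probe sets, both of BCL2L1, where the share over all 41091 was 2.06%, and at least 2-fold lower were 0 of 33, against 1.23%. Probe sets of 1 gene share their target and are not independent readings.

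Probe sets of a gene mostly disagreed in sign. Of the 8 members with several probe sets, 1 had all on 1 side of 0, where this held for 34.2% of 10523 genes of the array. Taking probe sets past the filter only, 3 of 6 members, BCL2L1, MCL1 and BAX, had all on 1 side, against 43.1% of 5495 genes. For BCL2L1 and MCL1 this agreement depends in part on the filter, which left out their probe sets of opposite sign. It kept 215037_s_at of BCL2L1 only by the Sox2 value (44.1, control 17.7). Likewise, 227175_at of MCL1 was kept only by the control value (39.5, Sox2 31.0). Agreement was rarer in genes with many probe sets: among all genes with 7 probe sets, as BCL2L11 has, 1.17% of 171 had all on 1 side. The share was 50.8% with 2 probe sets, 27.4% with 3, 14.9% with 4 and 4.29% with 6. Of the 10523 genes 5015 had 2 probe sets, whereas the 8 members had from 2 to 7. The 34.2% is thus not matched to the members in number of probe sets.

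**Figure D3:**
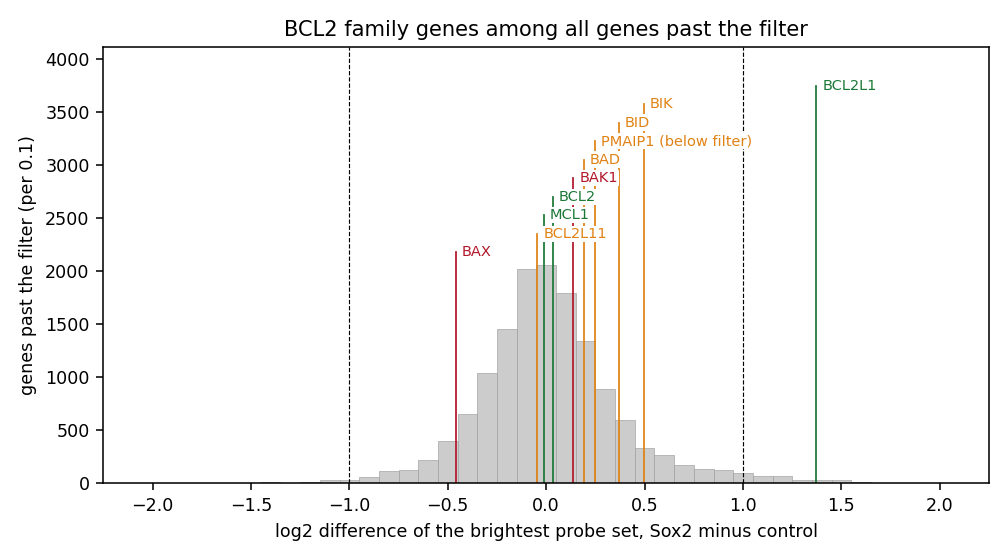
Distribution of the log2 difference (x axis, Sox2 minus control, brightest probe set) over the 14253 genes past the filter (y axis, genes per 0.1), with a coloured line for each member; line heights only separate the labels, and dashed lines mark 2-fold. BCL2L1 at 1.37 lies in the upper tail, BAX at -0.46 is the lowest member, and the other 8 lie between -0.045 and 0.50.

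Survival and death-promoting members overlapped in these arrays. By the brightest probe sets, the log2 differences of the survival genes were 1.37 for BCL2L1, 0.035 for BCL2 and -0.011 for MCL1, with a median of 0.035. Those of the 7 death-promoting genes ran from -0.46 for BAX to 0.50 for BIK, with a median of 0.19 and 5 of 7 above 0, as were 49.5% of all genes. The median over all genes past the filter was -0.0032. The survival median was thus lower than the death-promoting one by 0.16 (difference -0.16), and the ranges of the groups overlapped. Of the effectors 1 of 2 lay above 0, and of the BH3-only genes 4 of 5, with a median of 0.25. That median is the reading of PMAIP1, which was below the filter, and the signs of BID and BAD turned with the choice of probe sets. Over the 16 BH3-only probe sets, 7 lay above 0, with a median of -0.083, and the median of the genes' median probe sets was -0.045. No upward lean of the BH3-only genes can be taken from these values.

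The sign of that comparison turned with how probe sets were combined and with single genes. It was 0.18 when all probe sets of a gene were averaged, with medians of 0.13 for survival and -0.051 for death-promoting genes. It was also 0.18 as the difference of the medians over all probe sets, and 0.11 as that of the genes' median probe sets. Leaving out MCL1 gave 0.51 and leaving out BCL2 gave 0.49, since BCL2L1 then sets the median of the pair left, while leaving out BCL2L1 gave -0.18. With 3 and 7 genes, which are not replicates of a condition, no direction for either group could be taken from these values.

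**Figure D4:**
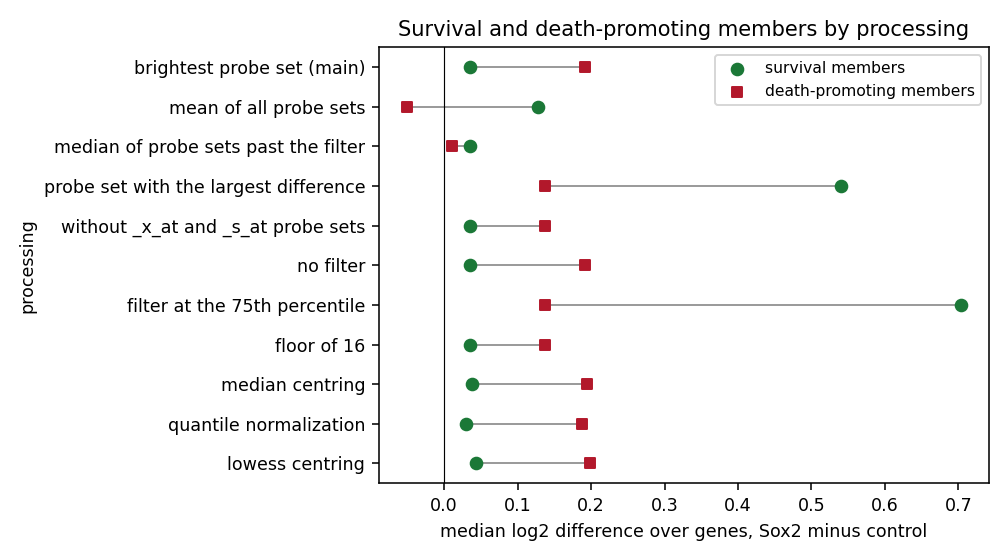
Median log2 difference (x axis, Sox2 minus control) over the survival genes (circles) and the death-promoting genes (squares) under each way of processing (y axis). Survival genes lie lower by the brightest probe sets (0.035 against 0.19) and higher when probe sets are averaged (0.13 against -0.051), so the order is set by the processing.

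Other genes of the apoptosis pathway, in 7 lists chosen by function, mostly differed by less than 2-fold. Of 60 listed genes, 54 had a named probe set and 44 passed the filter. Among these, 3 were at least 2-fold higher in the Sox2 array (background 2.05%), 0 were at least 2-fold lower (0.645%) and 41 lay between, with a median log2 difference of 0.085. The other 6 were not analysed here.

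BIRC6 was the 1 of 4 inhibitor of apoptosis proteins past the filter that reached 2-fold, and the list's median was -0.082. It is a very large ubiquitin ligase that blocks caspases. Its brightest probe set read 595 in the Sox2 array and 237 in the control array, a log2 difference of 1.33, and its other probe set differed by 1.54. Both readings of BIRC6 were therefore over the technical SD, whereas 2 of the 4 readings of BCL2L1 were not.

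Of 9 regulators of the members past the filter, 2 were at least 2-fold higher and 8 lay above 0, with a median of 0.40, where 49.6% of all genes past the filter lay above 0. The median was 0.13 with all probe sets of a gene averaged, 0.24 when _x_at and _s_at probe sets were left out and 1.01 with the probe set of largest difference. BAG4, which restrains death receptors, read 54.7 in the Sox2 array and 17.4 in the control array, a log2 difference of 1.65, and its 3 probe sets, 1 of them past the filter, ran from 0.16 to 1.65. BAG4 was past the filter only by its Sox2 value, so its place in the counts of genes at least 2-fold higher depends on that array. USP9X, the deubiquitinase that stabilises MCL1 protein, read 445 and 220, a log2 difference of 1.01, but its 4 probe sets ran from -0.57 to 1.01, with 2 on each side of 0. BAG4 thus kept 1 sign over its probe sets and USP9X did not.

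No gene of the other 5 lists reached 2-fold. Among the other survival proteins, 2 passed the filter and BCL2L2, which encodes BCL-w, differed most at 568 in the Sox2 array and 364 in the control array, a log2 difference of 0.64. Its second probe set, below the filter, differed by -0.59. Among 10 other death-promoting and BCL2-like genes, 4 lay above 0 and the median was -0.19. BNIP3, a hypoxia-induced mitophagy receptor, differed most there, at 65.8 and 95.3 (log2 difference -0.53).

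Downstream of the mitochondrion, the 8 apoptosome and mitochondrial factors past the filter had a median of 0.11. CYCS, the cytochrome c gene, differed most, at 28.7 in the Sox2 array and 39.6 in the control array, a log2 difference of -0.47. It was past the filter only by its control value, so its place in the list depends on that array. Its 3 probe sets ran from -0.50 to 0.14, with 1 above 0. The 5 caspases had a median of 0.33. This median was 0.16 with all probe sets of a gene averaged and 0.12 with the median of probe sets past the filter. With the filter at the 75th percentile it was 0.38. CASP8, the initiator that cleaves BID, read 57.0 and 42.0, a log2 difference of 0.44, and a further probe set past the filter gave 0.58. Of 6 death receptor genes and adaptors past the filter, 2 lay above 0 (median -0.13), and FADD, the adaptor that recruits caspase 8, read 39.8 and 54.3, a log2 difference of -0.45. Apart from CASP8, whose remaining probe set differed by -0.11, these were readings by 1 probe set past the filter each.

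**Figure D5:**
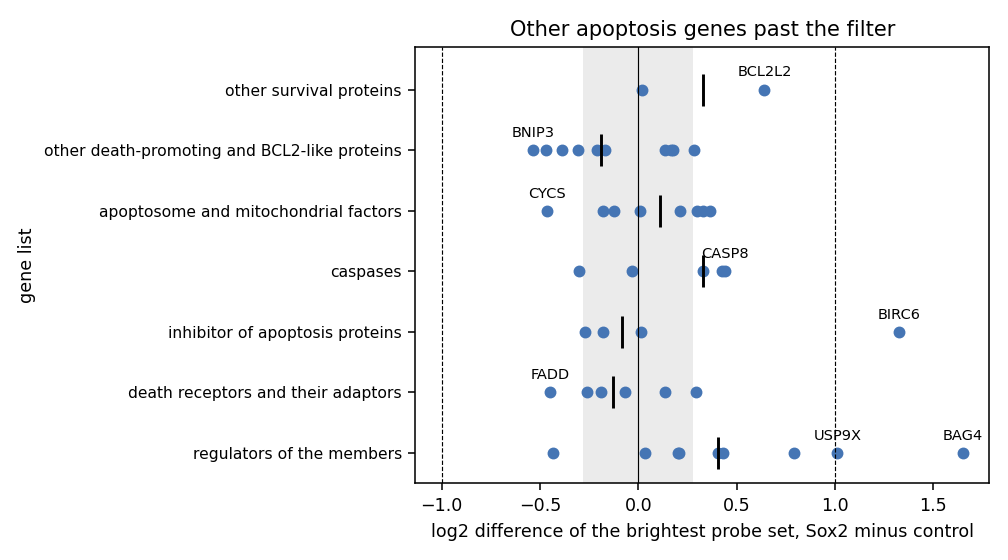
Log2 difference (x axis, Sox2 minus control, brightest probe set) of the 44 other apoptosis genes past the filter, by list (y axis), with black bars at the list medians, the grey band at 1 technical SD (0.27) and dashed lines at 2-fold. Only BIRC6, BAG4 and USP9X lie beyond 2-fold, all higher in the Sox2 array.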

How the data were processed

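The authors deposited linear intensities, 1 per array for each of 54675 probe sets. Per the submitters' processing notes RMA was used, with version and settings not given in the sources used here. Because the columns are linear, the last step that made them is unknown. Values were taken to log2 unscaled. Genes came from the platform annotation, with symbols updated through gene IDs (19735 of 19777 matched); 41091 probe sets list 1 gene, 1801 several and 11721 none, and 62 are controls. The brightest probe set by mean log2 value stood for a gene. Genes were counted at 2-fold, with no p-value. Named genes were all members and, of each list, up to 4 at 2-fold or the 1 that differed most. Members and lists were chosen with earlier results of these data known. Alternatives covered probe set choice, filter, a floor of 16, scaling (lowess span 0.3) and the fold threshold; spike-in scaling and a restriction to members past the filter were added after seeing the data. Counting was tested on simulated data. Python 3.11.15, numpy 2.4.6, pandas 2.3.3, statsmodels 0.14.6 and matplotlib 3.10.9 were used. The number of arrays limits the precision.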

Additional observations from a re-analysis of the deposited data

How the results depend on the processing

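BCL2L1 was at least 2-fold higher under every alternative but averaging of probe sets, where 0 members reached 2-fold and its log2 difference was 0.66. BCL2, MCL1, BAX, BAK1, BCL2L11 and BIK also kept their sign under all alternatives other than spike-in scaling that could be run on them, while BID and BAD turned and PMAIP1 had a difference of 0 at the floor of 16. Survival minus death-promoting members was 0.18 with averaged probe sets, 0.40 with the probe set of largest difference and 0.57 with the filter at the 75th percentile, which left 7 members. Members whose probe sets all lay on 1 side numbered 2 of 5 without _x_at and _s_at probe sets and 2 of 3 at the 75th percentile. No share over all genes was taken under these 2 settings. Both leave fewer probe sets per gene, where agreement is more common in all genes, so these counts are no result about the members. In the other lists, genes at least 2-fold higher numbered 1 of 35 with averaging (0.564% of all genes), 5 of 33 with the largest difference (3.17%) and 1 of 27 without _x_at and _s_at probe sets (1.56%), and 5 of 44 were at least 1.5-fold higher (6.46%). All 24 poly-A spike-in probe sets, for bacterial RNA added before labelling, were lower in the Sox2 array, with a median log2 difference of -0.75. Scaling on them moved every probe set by the same amount and raised the median of all genes past the filter to 0.76. It put 31 of 33 member probe sets above 0 and 6 of 8 members on 1 side. No share over all genes was taken for these 2 counts, so they are no result about the family. At least 2-fold higher were 3 members (BCL2L1, BID and BIK) and 17 of 51 other genes, against 20.7% of all genes past the filter, and BAX was at 0.29. The cause of these shifts was not tested. Without replicates no array could be left out. Of the robust SDs over the 1000 genes nearest in level to each member, that for PMAIP1 was largest, at 0.44. Those genes were all past the filter and PMAIP1 was not, so 0.44 is not the spread at its own level. A dim gene gets past the filter only through its higher array, which can widen this value.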
